A study of Mus musculus with 22 samples.

Results

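The genes that elongate, desaturate, activate and import long polyunsaturated fatty acids were followed in the retina and RPE of mice lacking adiponectin receptor 1 (ADIPOR1). The set held 9 genes taken by name, chosen with earlier results of these data known, out of 53801 genes in the bulk count tables and 19324 in the single-cell matrix. It comprised the elongases Elovl1, Elovl2, Elovl4 and Elovl5, the desaturases Fads1 and Fads2, and the genes for DHA handling Acsl6, Agpat3 and Mfsd2a. All 9 genes were present in every bulk library, and all 9 passed the filter on low counts in both bulk tissues.

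AdipoR1-/- (KO) and WT mice, both on the C57BL/6J strain and without further treatment, were compared in 16 bulk libraries and 6 single-cell libraries. Bulk RNA came from P30 retina and from P30 RPE cells that were shaken off the eyecup, with 4 libraries per genotype and tissue. Each single-cell library came from 4 pooled retinae of 1 genotype at P19, P25 or P30, so a genotype and age had 1 library. The KO was a germline knockout from a repository strain donated by Deltagen, so every cell of the animal lacked the receptor. The number of mice given for the bulk data equals the number of libraries in a group, so a bulk library was taken as 1 animal, although the labels do not tie libraries to animals.

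DHA (docosahexaenoic acid) is the main polyunsaturated fatty acid of photoreceptor outer segment membranes, and part of it is made locally or in liver from shorter dietary precursors. FADS2 and FADS1 insert the double bonds, ELOVL5 and ELOVL2 lengthen the intermediates, and ELOVL4 extends the products into the very long polyunsaturated fatty acids that photoreceptors use. MFSD2A carries DHA as a lysophospholipid across the blood-brain barrier and the RPE, ACSL6 activates DHA to its CoA ester, and AGPAT3 places it into membrane phospholipid. RPE cells pass circulating DHA on to photoreceptors and recycle it from shed outer segments.

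On GRCm38, Fads1 lies at chr19:10182888-10196877 on the plus strand and Fads2 at chr19:10062765-10101746 on the minus strand, so that their starts are 81.1 kb apart and point away from each other. Elovl5 lies at chr9:77917364-77984519 (plus strand) and Elovl4 at chr9:83778692-83806277 (minus strand) on the same chromosome. Elovl2 is at chr13:41182381-41220405 (minus strand), Elovl1 at chr4:118428093-118432953 (plus strand) and Mfsd2a at chr4:122946850-122961188 (minus strand). Acsl6 occupies chr11:54303798-54364756 (plus strand) and Agpat3 chr10:78269178-78352489 (minus strand). Other annotated genes shared 1.94% of the exon length of Elovl1 (Cdc20), 2.04% of that of Acsl6 (Gm12224, an antisense gene) and 0.21% of that of Agpat3 (Gm40709), all on the opposite strand.

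The promoters of the genes that were higher in KO retina were read from RefSeq (GRCm38.p6), as the 250 bases before each start. They were shown because these genes moved together in the retina. Fads1 was also higher. Capitals mark the NF-Y box CCAAT or its reverse complement ATTGG.
Elovl5, chr9:77917115-77917364, plus strand: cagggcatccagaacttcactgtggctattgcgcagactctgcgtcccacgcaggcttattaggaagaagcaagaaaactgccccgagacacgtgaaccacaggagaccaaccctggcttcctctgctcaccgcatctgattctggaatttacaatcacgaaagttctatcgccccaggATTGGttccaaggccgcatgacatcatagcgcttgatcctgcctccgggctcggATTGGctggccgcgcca
Fads2, chr19:10101504-10101753, minus strand: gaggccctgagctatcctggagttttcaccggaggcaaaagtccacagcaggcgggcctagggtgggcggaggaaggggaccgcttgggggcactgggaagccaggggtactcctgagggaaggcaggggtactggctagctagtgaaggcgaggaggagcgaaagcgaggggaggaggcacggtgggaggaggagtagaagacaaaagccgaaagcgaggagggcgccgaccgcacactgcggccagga
Mfsd2a, chr4:122961189-122961438, minus strand: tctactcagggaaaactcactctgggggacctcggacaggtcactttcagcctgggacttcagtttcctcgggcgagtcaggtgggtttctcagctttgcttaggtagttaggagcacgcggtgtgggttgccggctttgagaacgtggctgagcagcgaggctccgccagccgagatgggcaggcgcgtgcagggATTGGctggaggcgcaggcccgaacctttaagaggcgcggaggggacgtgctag

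The Elovl5 window held 2 NF-Y boxes, 71 and 17 bases before the start, and the Mfsd2a window held 1, 54 bases before it. The Fads2 window held none. An NF-Y box was present in 33.8% of 32851 RefSeq windows of the same length, so its presence did not set these promoters apart. The sterol regulatory element TCACNCCAC occurred in 1.05% of all windows, the PPAR response element, a direct repeat of AGGTCA with 1 base between, in 0.0335% and the CRX site TAATCC in 6.25%, searched on both strands with no letters shared with the NF-Y box. None of these last motifs was found in the windows of the 8 members with an entry, which says only that these letters are not in these windows.

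The targeted gene was checked first. Adipor1 RNA was 605, 601, 589 and 607 CPM (read counts scaled to a common library total, with TMM factors) in the 4 WT retina libraries and 142, 138, 136 and 138 in the KO libraries. In RPE it was 379, 404, 479 and 374 CPM in WT and 142, 148, 152 and 139 in KO. Both tissues matched their labels, with log2 fold changes of -2.11 ± 0.0393 (SE; adjusted p = 4.6e-13) and -1.49 ± 0.0906 (adjusted p = 2.1e-04) by edgeR. The counts do not resolve which exons gave the RNA that remained.

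Library totals ranged from 20133143 to 38409496 counts. The 9 RPE markers summed to between 32600 and 49600 CPM in the RPE libraries and at most 166 CPM in retina. RPE libraries also carried rod RNA, which was unequal between libraries. The 12 rod markers summed to 1090, 16900, 16600 and 1590 CPM in WT RPE and to 750, 4110, 5920 and 1150 CPM in KO RPE, for the libraries numbered 1 to 4. In retina they summed to between 64200 and 69900 CPM in WT and between 33200 and 38200 CPM in KO, with 11 of 12 markers lower. The microglia markers were higher in KO (12 of 12 in retina, 10 of 12 in RPE), as were 8 of 11 Müller glia markers in retina. Of the other Müller glia markers, Glul was lower in KO retina (2170 ± 78.9 to 1820 ± 111 CPM). Rlbp1 and Car14 did not reach an adjusted p below 0.05 there. In bulk tissue, fewer cells of a type and less RNA per cell cannot be told apart.

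The first comparison asked where the members are used in the WT eye. Per kilobase of exon, Agpat3 had the highest level in WT retina with 202 ± 2.71 RPKM (SD, n = 4), followed by Elovl4 with 145 ± 6.04 RPKM. Acsl6 (28.6 ± 0.492 RPKM) and Elovl2 (17.7 ± 2.07 RPKM) came next, and Fads2 (13.6 ± 0.715 RPKM) and Fads1 (13.3 ± 0.998 RPKM) differed by less than their spread. Elovl5 was at 9.60 ± 1.00 RPKM, Elovl1 at 4.62 ± 0.270 RPKM and Mfsd2a, the lowest, at 2.03 ± 0.226 RPKM. The 2 genes at the top of the retina were those for extension of very long chains and for placement of DHA in phospholipid.

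The order in WT RPE was different. Acsl6 led with 129 ± 14.8 RPKM, and Agpat3 (93.8 ± 27.6 RPKM), Fads1 (79.4 ± 3.40 RPKM), Fads2 (75.8 ± 3.07 RPKM) and Elovl1 (73.0 ± 16.9 RPKM) followed, with neighbours within their spread. Elovl4 (37.8 ± 18.0 RPKM), Elovl5 (33.0 ± 3.81 RPKM) and Mfsd2a (29.2 ± 2.87 RPKM) were again within the spread of their neighbours, and Elovl2 was lowest with 13.6 ± 2.08 RPKM.

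Between the tissues, 9 of 9 members passed the test (adjusted p below 0.05), where 84.6% of all 21068 genes did, so the count itself is close to the background. The direction was not the same for all members. The genes Elovl1 (log2 fold change 4.02 ± 0.150 SE), Mfsd2a (3.89 ± 0.113), Fads1 (2.62 ± 0.0686), Fads2 (2.52 ± 0.0624), Acsl6 (2.22 ± 0.0806) and Elovl5 (1.82 ± 0.091) were higher in RPE. Elovl4 (-1.90 ± 0.251), Agpat3 (-1.07 ± 0.147) and Elovl2 (-0.34 ± 0.12) were lower in RPE. The Elovl2 difference did not pass the test without WT retina library 2 (-0.25) or without WT RPE library 1 (-0.29). For Elovl4 the WT RPE libraries with the most rod RNA, numbers 2 and 3, had 123 and 155 CPM against 59.8 and 74 CPM in libraries 1 and 4, and with only the RPE libraries numbered 1 and 4 its difference was -2.62.

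Single retinal cells placed the members in cell classes. Classes were rebuilt from clusters and named from marker genes, and are called "-like" at first mention only: rod-like, cone-like, bipolar-like, amacrine-like, horizontal-like, ganglion-like, Müller glia-like, astrocyte-like, microglia-like, endothelial-like and pericyte-like cells. Between 1.79% and 6.38% of the cells of a library stayed unnamed, and no cluster could be named RPE. Single-cell levels are CPM of the UMIs of a class, compared across classes within a gene and not between genes, with exact 95% Poisson intervals that cover counting error only.

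In WT cells summed over the ages, Elovl2 was highest in cones (230 CPM), with 35.0 CPM in rods and at most 10.3 CPM in each other class. Over the 3 ages it averaged 205 ± 54.9 CPM (SD, n = 3) in cones and 34.9 ± 11.1 CPM in rods. Elovl4 was highest in rods (857 CPM) and next in cones (327 CPM), and so was Agpat3 (912 CPM in rods, 304 CPM in cones). Both of these genes were found in every named class, Elovl4 at 11.5 CPM or more and Agpat3 at 62.4 CPM or more. For each of these 3 genes the ranges over the ages did not overlap between rods and cones. Rod marker RNA was found outside rods too (between 1670 and 6590 CPM in WT Müller glia, against 52600 to 90700 CPM in WT rods), and the part of free rod RNA in the lower levels was not tested.

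The desaturases had the opposite distribution. Fads1 was highest in astrocytes (193 CPM, interval 136 to 264, from 38 UMIs in 25 cells) and reached 59.9 CPM in horizontal cells, 49.1 CPM in amacrine cells and 43.4 CPM in Müller glia, whose levels did not differ beyond their spread over the ages. Fads2 was at 147 CPM in astrocytes (interval 98.5 to 211) and 93.5 CPM in Müller glia, against 9.05 CPM in rods. Elovl5 followed Müller glia (90.0 CPM) and astrocytes (81.1 CPM) and was nearly absent from rods (0.734 CPM, 3 UMIs).

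The remaining members had patterns of their own. Mfsd2a was at 289 CPM in endothelial cells (451 UMIs in 140 cells) and at most 2.33 CPM in any other class, with 0 UMIs in cones. Elovl1 was highest in endothelial cells (75.0 CPM) and pericytes (63.8 CPM, from 13 UMIs). Acsl6 was spread over cones (157 CPM), rods (116 CPM) and Müller glia (105 CPM), and these levels did not differ beyond their spread over the ages (144 ± 29.9, 122 ± 31.1 and 101 ± 8.77 CPM, SD, n = 3).

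**Figure D1:**
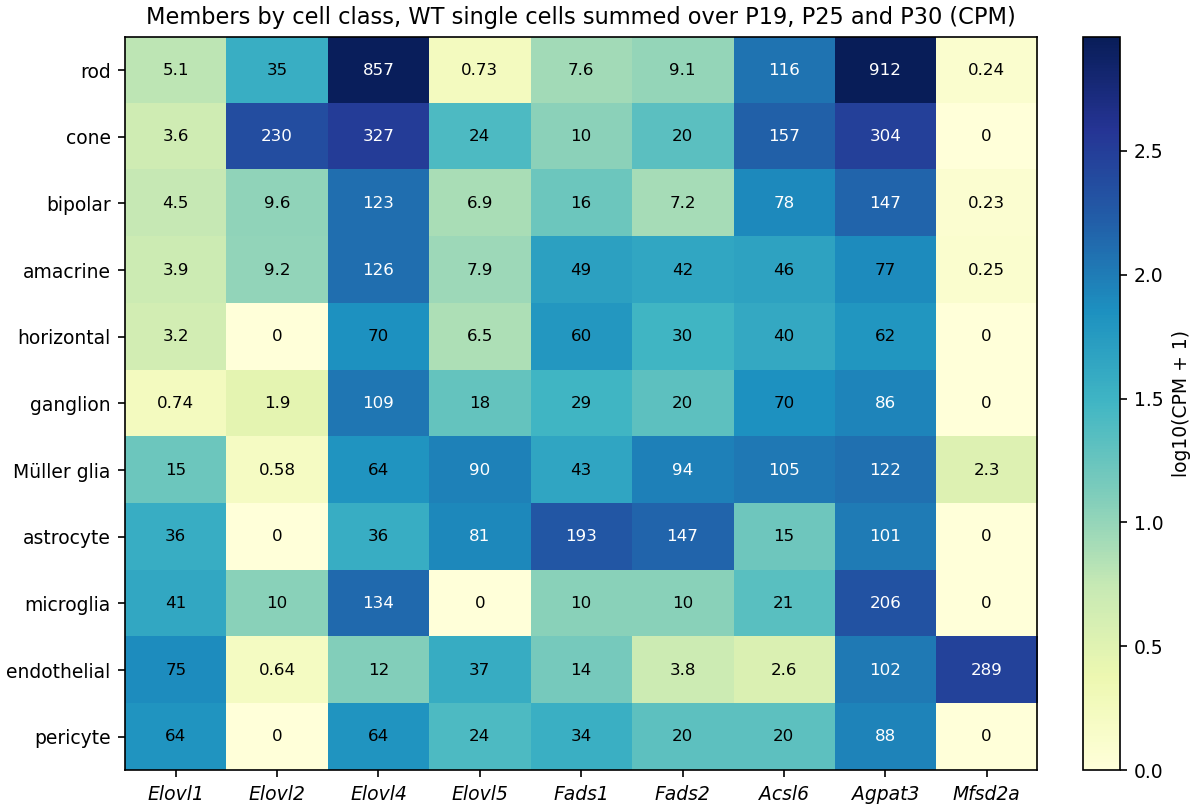
Level of each member (columns) in each named cell class (rows) of the WT single-cell libraries, summed over P19, P25 and P30; numbers in cells are CPM and the colour is log10(CPM + 1). Elovl2 peaks in cones, Elovl4 and Agpat3 in rods, the desaturases in astrocytes, and Mfsd2a in endothelial cells; colours are read down a column, not across a row.

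The genes whose WT pattern over the 11 classes was most like that of Elovl2, by Pearson correlation of log2(CPM + 1) among 15067 genes, were Apela (0.95), 5330413P13Rik (0.942), Igsf9 (0.927), Scaf11 (0.925) and Prcd (0.913), a photoreceptor disc gene. For Elovl4 they were Bbs5 (0.939), Ttc8 (0.922), Dnaaf2 (0.922), Ufsp2 (0.921) and Fam57b (0.92), of which Bbs5 and Ttc8 encode parts of the ciliary BBSome. These are descriptions over classes that share libraries and depth.

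In bulk retina, the desaturases were higher in KO than in WT, and 4 other members were lower. Fads2 rose 2.20-fold and Fads1 1.33-fold, and Elovl5 and Mfsd2a rose with them, while Agpat3, Elovl2, Elovl4 and, slightly, Acsl6 fell. Of the 9 members, 8 passed the test (4 higher, 4 lower), where 30.9% of 19381 genes tested did (16.2% higher and 14.7% lower). Of these calls 52.5% were higher, against 79.8% when libraries were scaled by their totals, where 5 members passed higher and 3 lower. Fads2 and Agpat3 were also DEGs, with a fold change of at least 1.5, a class that held 10.0% of all genes.

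Fads2, the first desaturase of the pathway, was at 47.7, 53.3, 48.5 and 47.2 CPM in the WT retina libraries and at 107, 103, 113 and 110 CPM in the KO libraries. The genotypes were far apart, the lowest KO library being well above the highest WT library. Its log2 fold change was 1.14 ± 0.0492 (SE; adjusted p = 1.8e-09). For Fads1, the second desaturase, WT libraries were at 66, 78.6, 68.5 and 69.2 CPM and KO libraries at 97.2, 94.4, 92.7 and 90.4 CPM. The groups did not overlap, and the change was smaller than that of its neighbour, 0.41 ± 0.0527 (adjusted p = 5.1e-05).

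Elovl5, which elongates the products of the first desaturase, was at 33.9, 43, 36.3 and 35.5 CPM in WT and 45.1, 46.2, 47.5 and 43.9 CPM in KO retina. WT library 2 came close to the lowest KO library, and the log2 fold change was 0.30 ± 0.0695 (adjusted p = 0.0055). Mfsd2a, the lysophospholipid carrier, was low in retina, at 4.46, 5.61, 4.6 and 5.39 CPM in WT and 6.07, 7.61, 8.36 and 8.03 CPM in KO. All KO libraries were above all WT libraries, by 0.58 ± 0.12 on the log2 scale (adjusted p = 0.0023). The endothelial markers, the class in which Mfsd2a was highest, summed to between 301 and 356 CPM in WT and between 481 and 506 CPM in KO retina. Of these 10 markers 3 were higher, Kdr (173 ± 24.2 to 316 ± 11.3 CPM), Flt1 (71.5 ± 6.23 to 89.5 ± 4.78 CPM) and Plvap. Cldn5, Pecam1, Cdh5, Ly6c1, Esam, Egfl7 and Tie1 did not pass. Kdr was also at 879, 1050 and 371 CPM in WT Müller glia at P19, P25 and P30. The part of these markers in the Mfsd2a result was not tested.

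Agpat3, the acyltransferase for DHA, was at 1760, 1750, 1730 and 1700 CPM in WT retina and 1120, 1070, 1080 and 1090 CPM in KO. The spread within a genotype was small against the gap of -0.67 ± 0.0523 (adjusted p = 5.1e-07). Elovl4, the elongase of very long chains, was at 486, 482, 457 and 505 CPM in WT and 346, 348, 358 and 340 CPM in KO, again without overlap (-0.47 ± 0.0439, adjusted p = 2.7e-06), though it did not pass when all 16 bulk libraries, with the wide spread of the RPE, shared the fit. Elovl2 was at 74, 90.9, 69.8 and 74 CPM in WT and 53.1, 50.4, 54.1 and 51.3 CPM in KO (-0.56 ± 0.071, adjusted p = 4.3e-05). Agpat3 and Elovl4 had their highest level in rods among WT cells, and Elovl2 had its highest level in cones. The rod markers fell in the same libraries, and the median log2 fold change of the 12 rod markers was -0.77. In these bulk libraries, fewer rods and less RNA of these 3 genes per cell cannot be told apart.

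Acsl6 was at 314, 316, 313 and 303 CPM in WT retina and 292, 284, 287 and 288 CPM in KO. The groups did not overlap, but the change was only -0.12 ± 0.0359 (adjusted p = 0.027) and did not pass the test without WT library 1 or 3 or without KO library 2 or 3. Scaling by library totals brought it to 0.00 where the median of all genes was 0.114, against 0.004 with TMM, so the direction of Acsl6 in retina depends on the scaling. Elovl1 was at 14.8, 14.4, 13.3 and 13 CPM in WT and 15.3, 17.2, 15 and 15.4 CPM in KO and did not pass the test (0.18 ± 0.071, adjusted p = 0.07). Groups did not overlap for 9 of 9 members, against 31.4% of all genes.

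**Figure D2:**
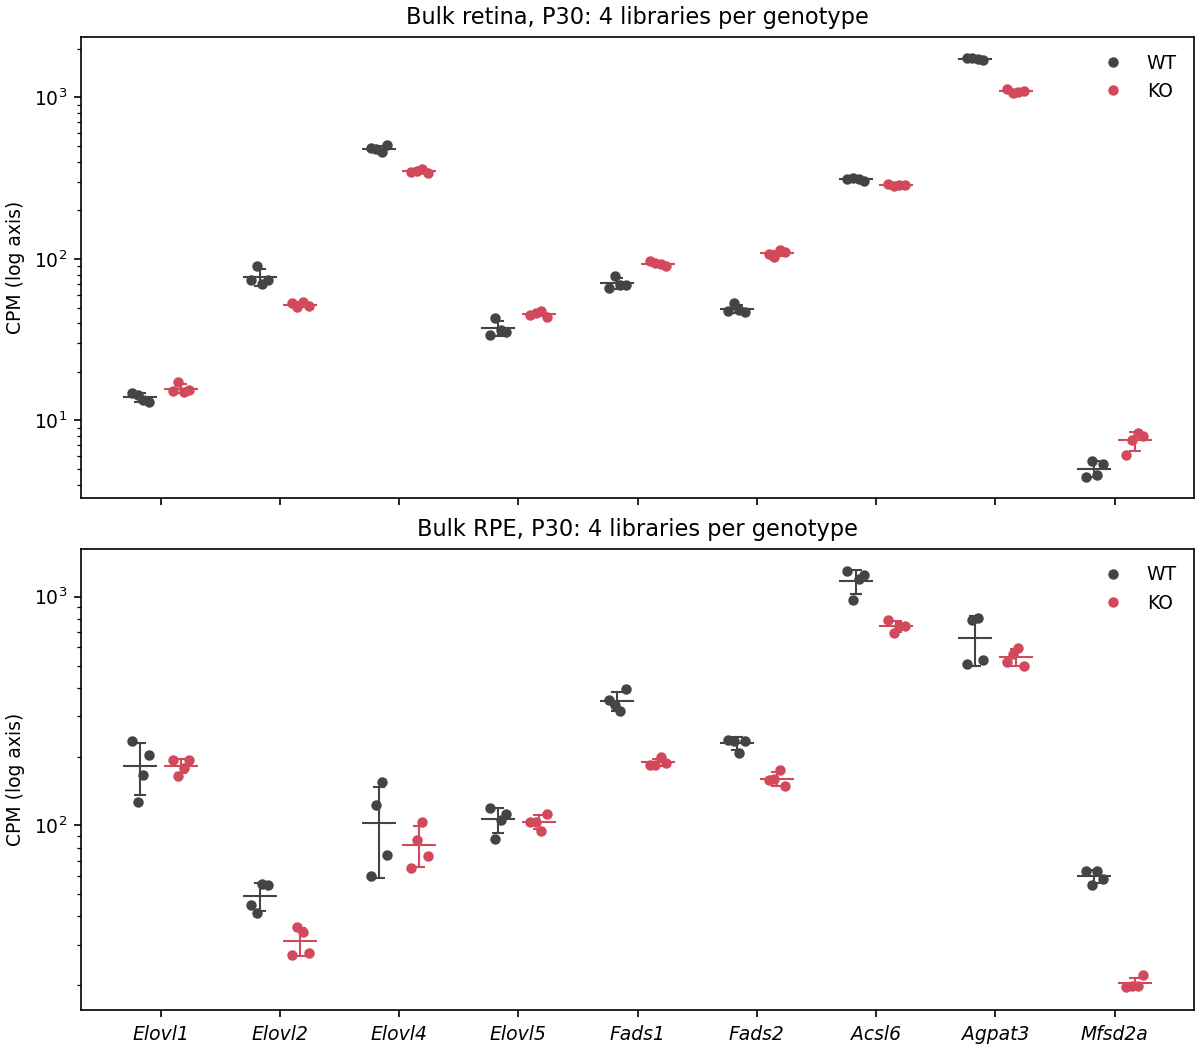
CPM of each member (log axis) in the P30 bulk retina (upper panel) and RPE (lower panel) libraries; points are the 4 libraries of a genotype (grey WT, red KO), horizontal bars their mean and vertical bars the SD. In retina the KO points of Fads2 lie between 103 and 113 CPM above WT points between 47.2 and 53.3 CPM, and in RPE the KO points of Mfsd2a lie between 19.7 and 22.1 CPM below WT points between 54.8 and 63.2 CPM.

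With the rod marker level as a covariate in retina, 0 members passed the test by edgeR (1, Fads2, at an unadjusted p below 0.05), and 3 of 19381 genes did. The covariate separates the genotypes, so this fit cannot tell a rod effect from a genotype effect. The estimates for Fads2 (1.20) and Fads1 (0.83) stayed positive in it, those of Agpat3 (-0.49) and Elovl4 (-0.23) stayed negative, and those of Mfsd2a (-0.73), Elovl2 (0.11) and Acsl6 (0.04) changed sign.

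In bulk RPE the same desaturases were lower in KO, and Mfsd2a, the carrier of DHA into the RPE, fell to a 2.93-fold lower level, the largest change among the members. Of the 9 members, 5 passed the test and all 5 were lower in KO (Mfsd2a, Fads1, Acsl6, Elovl2 and Fads2), where 6.73% of 18989 genes passed and 3.89% were lower. The first 4 of these were DEGs, against 4.97% of all genes. The median log2 fold change of the 9 members was -0.51, and that of all genes tested was -0.02. Of the 9 RPE markers 2 passed, both lower in KO: Rpe65, the visual cycle isomerase (4070 ± 889 to 2130 ± 32.9 CPM), and Lrat, which makes retinyl esters (2560 ± 431 to 1540 ± 103 CPM). The red blood cell markers summed to between 2500 and 4290 CPM in WT and between 921 and 2580 CPM in KO RPE, with 5 of 5 lower and 0 passing. The part of these markers and of the microglia markers in the members' results was not tested.

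Mfsd2a was at 63.2, 54.8, 63.2 and 58.3 CPM in the WT RPE libraries and at 19.7, 19.9, 19.8 and 22.1 CPM in the KO libraries. The libraries of each genotype were close together and the genotypes far apart, and the log2 fold change was -1.55 ± 0.0719 (SE; adjusted p = 6.5e-05). Fads1 was at 353, 335, 315 and 394 CPM in WT and 183, 184, 199 and 188 CPM in KO, a gap several times the spread within either genotype (-0.89 ± 0.0788, adjusted p = 8.2e-04). Fads2 was at 236, 235, 207 and 235 CPM in WT and 158, 160, 174 and 148 CPM in KO (-0.51 ± 0.0702, adjusted p = 0.005). Both desaturases fell in RPE without overlap between the genotypes, the reverse of their direction in retina.

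Acsl6, the DHA-activating synthetase that led the members in WT RPE, was at 1290, 967, 1190 and 1240 CPM in WT and 788, 692, 745 and 747 CPM in KO. WT library 2, which carried the most rod RNA, was lowest of the WT libraries and still above every KO library, and the change was -0.66 ± 0.104 (adjusted p = 0.0092). Elovl2 was at 45, 41.6, 55.3 and 54.9 CPM in WT and 27.2, 36.1, 34.1 and 27.7 CPM in KO (-0.65 ± 0.133, adjusted p = 0.026). Its groups did not overlap, but it did not pass the test without WT library 3 or 4 or without KO library 1 or 4, where the estimates were between -0.60 and -0.59. Groups did not overlap for 5 of 9 members, against 15.2% of all genes.

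The other 4 members did not pass the test in RPE. Elovl4 (WT 103 ± 44.0, KO 82.4 ± 16.9 CPM, SD, n = 4) and Agpat3 (WT 660 ± 164, KO 544 ± 44.0 CPM) were both highest in the 2 WT libraries with the highest rod marker sums. Agpat3 was at 792 and 811 CPM in WT libraries 2 and 3, which were rich in rod RNA, and at 508 and 530 CPM in libraries 1 and 4, while the KO libraries were between 500 and 599 CPM. With the rod marker level as a covariate the log2 fold changes of Elovl4 and Agpat3 were -0.01 and -0.12. In that fit the same number of members, 5, passed, while the genes called rose from 1278 to 2158 of 18989. Elovl5 (-0.04 ± 0.101) and Elovl1 (WT 183 ± 46.9, KO 182 ± 13.3 CPM, 0.00 ± 0.177) had overlapping groups.

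**Figure D3:**
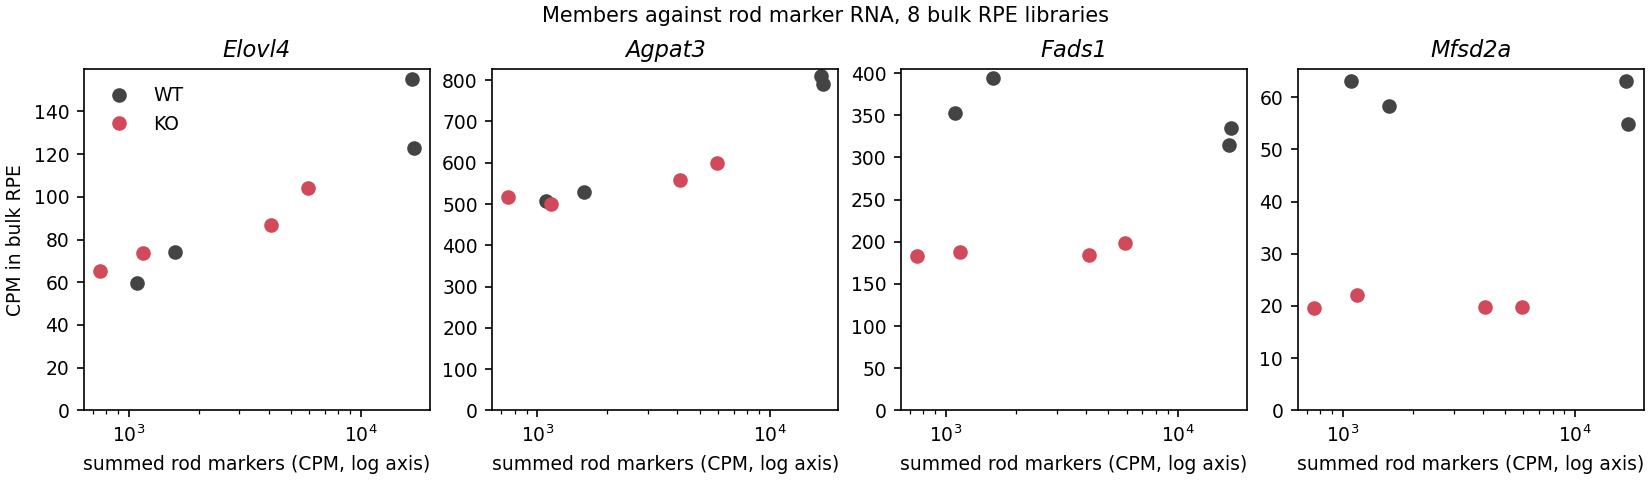
CPM of Elovl4, Agpat3, Fads1 and Mfsd2a (vertical axes, from 0) against the summed CPM of 12 rod markers (log axis) in the 8 bulk RPE libraries; each point is 1 library, grey WT and red KO. Elovl4 and Agpat3 are highest in WT libraries 2 and 3 (rod sums of 16900 and 16600 CPM). Fads1 and Mfsd2a separate by genotype, but no KO library has a rod sum above 5920 CPM.

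The RPE libraries numbered 1 and 4, with the least rod RNA, were also compared alone, a choice made after the values were seen. With 2 libraries per genotype, 2 members passed the test, Mfsd2a (-1.53) and Fads1 (-1.0), where 208 of 18893 genes did. The estimates of Elovl2 (-0.85), Acsl6 (-0.71) and Fads2 (-0.61) kept their direction without passing, and Elovl4 was at 0.07. WT RPE library 4 and library 2 also held lens marker RNA (879 and 440 CPM, against 17.3 to 41.4 CPM in KO), whose part in these results was not tested.

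The difference between the tissues was tested as an interaction of genotype and tissue over all 16 libraries. It passed for 4 of 9 members, all with a lower effect in RPE, where 8.84% of 21068 genes passed and 5.73% were lower. The genotype effect in RPE minus that in retina was -2.12 ± 0.147 for Mfsd2a (SE; adjusted p = 1.0e-06), -1.63 ± 0.084 for Fads2 (adjusted p = 5.2e-08), -1.28 ± 0.0919 for Fads1 (adjusted p = 1.2e-06) and -0.52 ± 0.109 for Acsl6 (adjusted p = 0.0074), on the log2 scale. For Mfsd2a, Fads1 and Fads2 the effect was positive in every comparison of KO with WT retina libraries and negative in every one of RPE libraries. With TMM, Acsl6 was lower in both tissues and more so in RPE, but its direction in retina depended on the scaling.

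For the other members the interaction did not pass, which does not show equal effects. It was -0.31 ± 0.125 for Elovl5 (adjusted p = 0.15), 0.40 ± 0.206 for Agpat3 (adjusted p = 0.27), 0.16 ± 0.343 for Elovl4, -0.16 ± 0.189 for Elovl1 and -0.07 ± 0.17 for Elovl2. The Elovl5 value passed without WT RPE library 2 (-0.39) and with library totals (-0.43), a scaling under which the median of all genes was -0.177, against -0.053 with TMM.

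**Figure D4:**
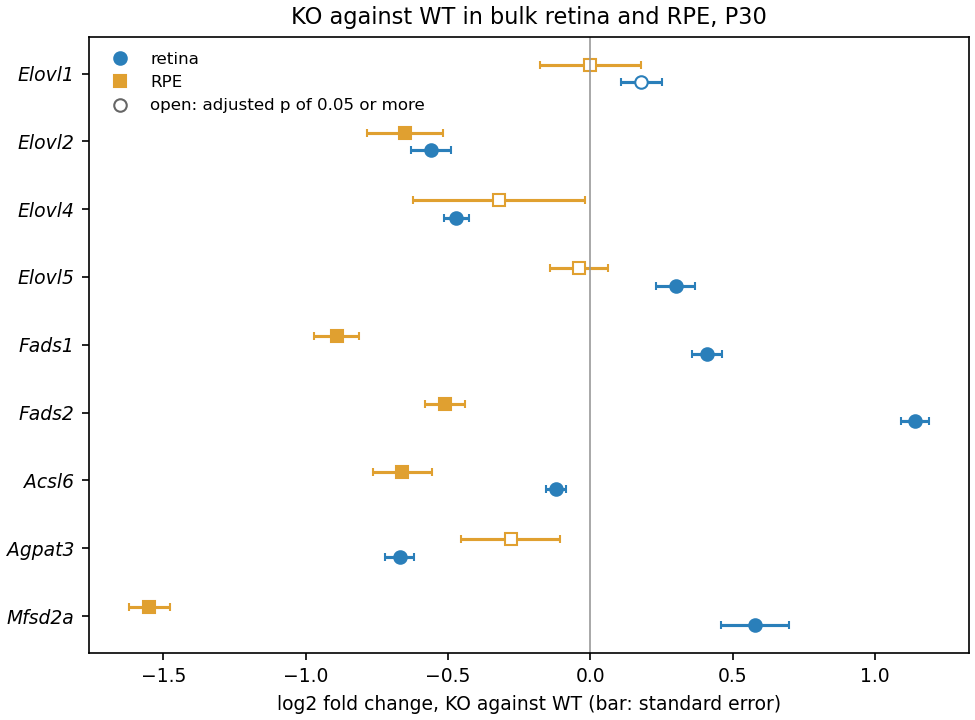
Log2 fold change of KO against WT for each member in bulk retina (blue circles) and RPE (orange squares), with bars for the standard error; open symbols have an adjusted p of 0.05 or more. Fads1, Fads2 and Mfsd2a lie right of 0 in retina (0.41, 1.14 and 0.58) and left of it in RPE (-0.89, -0.51 and -1.55), and Elovl2 lies left of it in both.

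In rods, both desaturases rose in KO. Fads2 in rods was at 9.82, 8.05 and 9.04 CPM in WT and 47.9, 75.7 and 42.7 CPM in KO at P19, P25 and P30, from 13, 8 and 16 UMIs in WT and 68, 224 and 101 in KO. Every KO library was more than 4 times its WT partner, and the log2 fold change over the ages was 2.45 ± 0.239 (limma, adjusted p = 3.3e-05). Fads1 was at 6.80, 12.1 and 5.65 CPM in WT and 27.5, 30.1 and 10.6 CPM in KO rods, and at P30 its KO level was below the WT level at P25. Its change, 1.29 ± 0.287 (adjusted p = 0.016), did not pass the test without P19 or without P25 (1.02 to 1.54 over the ages left out).

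These were 2 of the 7 members tested in rods, where 6.22% of 11677 genes passed and 4.13% were higher. Elovl5 and Mfsd2a had under 20 UMIs in rods and were not tested. Agpat3 was at 864, 989 and 905 CPM in WT and 728, 814 and 576 CPM in KO rods, lower at each age but short of the threshold (-0.39 ± 0.141, adjusted p = 0.13). Elovl4, at 697, 730 and 1050 CPM in WT and 741, 746 and 887 CPM in KO rods, was lower only at P30 (-0.04 ± 0.137, adjusted p = 0.91). Elovl2 (-0.44 ± 0.244), Acsl6 (0.08 ± 0.126) and Elovl1 (-0.02 ± 0.372) did not pass either.

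Different clusters held most rods of the genotypes (clusters 0 and 2 in KO, 1 and 5 in WT). Rods had median depths between 1019 and 1204 UMIs per cell. RNA of other classes was present in rods: the 11 Müller glia markers summed to 239, 227 and 825 CPM in WT and 313, 616 and 516 CPM in KO rods, and the 9 cone markers to 317, 349 and 794 CPM in WT and 652, 1290 and 2000 CPM in KO rods, at P19, P25 and P30. Of the 11 Müller glia markers 1, Clu, was higher in KO rods at each age. Of the 9 cone markers Gnb3 was higher at each age (71.0, 94.6 and 104 CPM in WT and 417, 1050 and 1540 CPM in KO), while Arr3, the cone arrestin, and Opn1sw, the short-wavelength opsin, were lower at each age. Without Gnb3 the other 8 cone markers summed to 246, 255 and 690 CPM in WT and 235, 242 and 458 CPM in KO rods. The part of RNA of other classes in the desaturase result was not tested. The sample titles do not state a sequencing batch, and age and any batch cannot be told apart. Without P30, Fads2 and Fads1 both passed, where 1634 of 11044 genes did, against 726 of 11677 with all ages. The P30 libraries, 1 per genotype, had a KO to WT ratio of 4.72 for Fads2 (95% counting interval 2.77 to 8.56). For Fads1 the P30 ratio was 1.87 (0.866 to 4.36).

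Cones showed the same direction for the desaturases without passing the test. Fads2 in cones was at 22.0, 19.7 and 12.5 CPM in WT and 67.0, 46.6 and 34.6 CPM in KO at P19, P25 and P30, higher at each age (1.34 ± 0.237, adjusted p = 0.21). Fads1 was at 11.6, 9.14 and 4.17 CPM in WT and 27.5, 22.4 and 5.32 CPM in KO, where the P30 values rested on 1 and 2 UMIs (0.83 ± 0.372, adjusted p = 0.77). Of 8 members tested 0 passed by limma, against 0.0383% of 10447 genes. At an unadjusted p below 0.05, 2 members (Fads2 and Elovl2) and 6.09% of genes passed. By edgeR's count test on the same sums Fads2 and Fads1 passed, where 110 of 10447 genes did, against 4 by limma. Without P30, Fads2 (1.37) and Fads1 (1.16) passed by limma, where 114 of 10283 genes did, against 4 of 10447 with all ages.

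Elovl2, the gene with its peak in cones, was at 236, 238 and 142 CPM in WT and 234, 208 and 42.5 CPM in KO cones (-0.63 ± 0.275, adjusted p = 0.77). KO and WT were close at P19 and P25, with ratios of 0.99 (counting interval 0.845 to 1.16) and 0.875 (0.737 to 1.04), and apart at P30, with a ratio of 0.30 (0.155 to 0.559) from 16 and 34 UMIs. Without P19 the change passed the test (-0.93), where 57 of 9270 genes did, against 4 of 10447 with all ages. The P30 libraries had the lowest median UMIs per cell, and age, depth and any batch cannot be told apart. Elovl4 (-0.05 ± 0.0973) and Agpat3 (-0.16 ± 0.0997) in cones did not pass.

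In Müller glia, the support cells of the retina, Fads2 was at 101, 84.2 and 110 CPM in WT and 76.8, 113 and 150 CPM in KO, lower in KO at P19 and higher at the other ages (0.15 ± 0.191, adjusted p = 0.73). Fads1 was at 43.5, 45.1 and 31.6 CPM in WT and 57.9, 66.7 and 38.9 CPM in KO (0.42 ± 0.18, adjusted p = 0.34). Elovl5, for which Müller glia had the highest level among the larger classes, was at 90.9, 83.1 and 130 CPM in WT and 71.0, 92.3 and 77.9 CPM in KO (-0.31 ± 0.189, adjusted p = 0.48).

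Mfsd2a in Müller glia was at 4.68, 0.593 and 0 CPM in WT and 26.3, 13.3 and 4.10 CPM in KO at P19, P25 and P30, from 7, 1 and 0 UMIs in WT and 64, 49 and 2 in KO. KO was above WT at P19 and P25. At P30 WT had 0 UMIs in a library where 3 counts would be 11.8 CPM, above the KO level of 4.10 CPM. Over all ages the difference missed the threshold (2.46 ± 0.463, limma adjusted p = 0.06). At P19 the ratio of KO to WT was 5.61 (counting interval 2.57 to 14.5). Without P30, Mfsd2a passed (2.79), where 605 of 12409 genes did, against 125 of 12547 with all ages. By edgeR's count test on all ages it also passed (3.06), where 956 of 12547 genes did. The endothelial markers, the class with the highest Mfsd2a, summed to 1650, 1710 and 529 CPM in WT and 1250, 1530 and 559 CPM in KO Müller glia, almost all of it Kdr and Flt1. Of the 10 markers 3 (Cldn5, Ly6c1 and Plvap) were higher in KO at each age, all at low levels (Cldn5 0.669, 1.19 and 0 CPM in WT and 3.69, 1.36 and 14.3 CPM in KO), and Kdr was lower at each age. The part of endothelial RNA in the Mfsd2a values was not tested. Of 9 members tested in Müller glia 0 passed by limma, against 0.996% of 12547 genes. At an unadjusted p below 0.05 only Mfsd2a passed, against 14.6% of genes, and by edgeR Mfsd2a and Fads1 did. P30 Müller glia fell mainly in another cluster (16) than those of P19 and P25 (4).

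**Figure D5:**
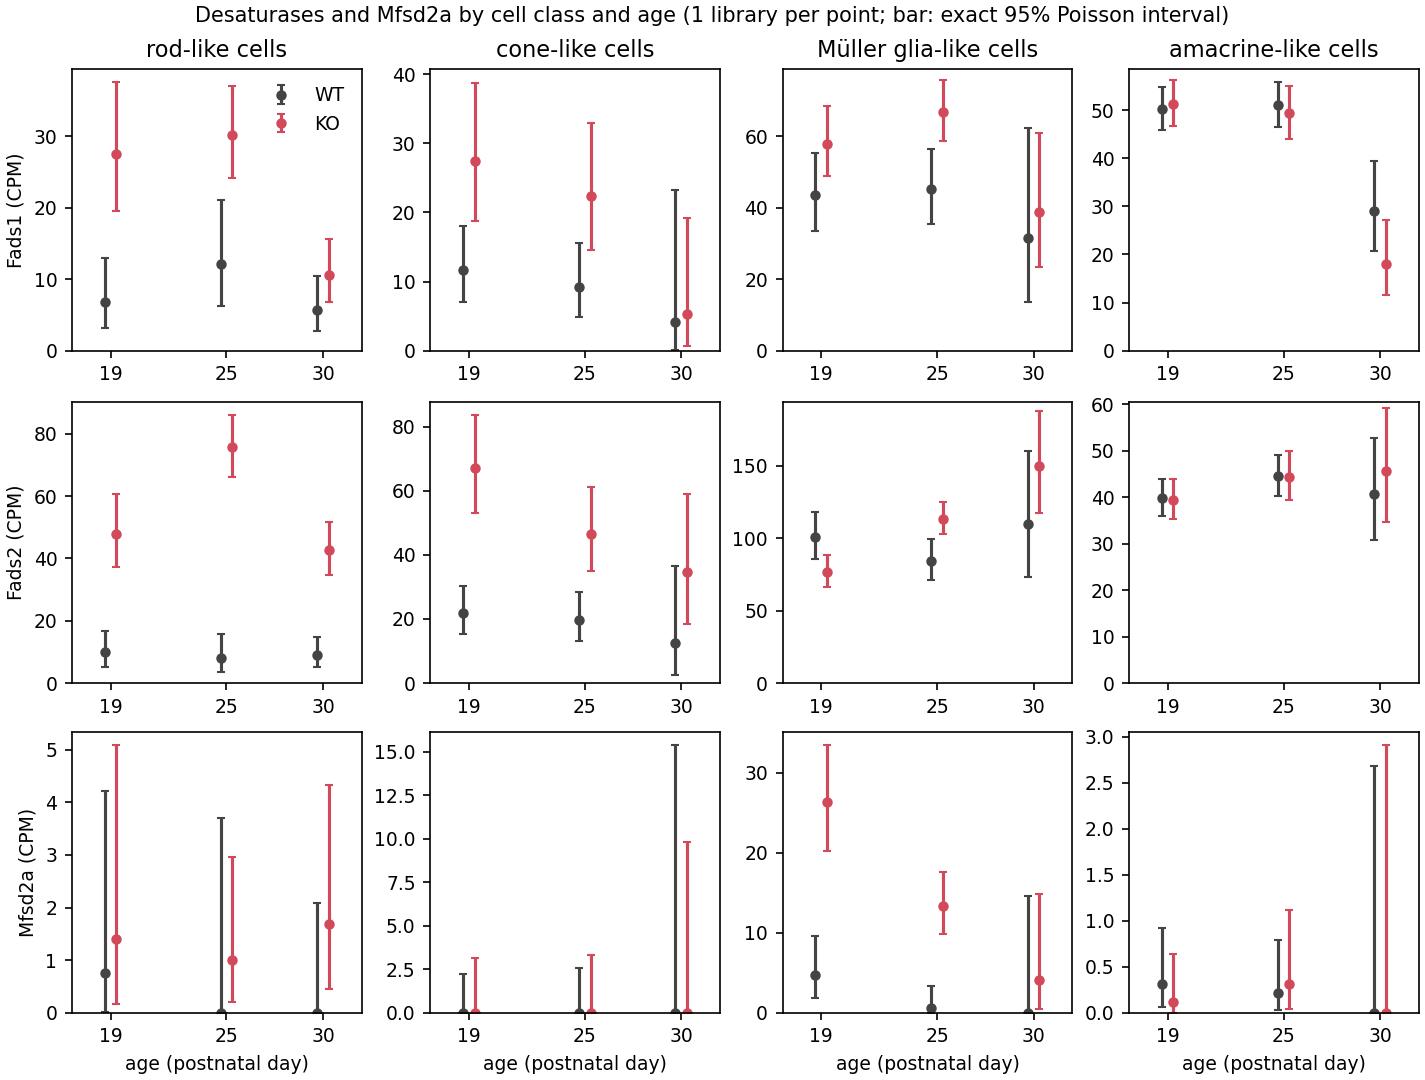
CPM of Fads1, Fads2 and Mfsd2a (rows) in rod-like, cone-like, Müller glia-like and amacrine-like cells (columns) at postnatal days 19, 25 and 30; each point is 1 library (grey WT, red KO) and bars are exact 95% Poisson intervals, with axes that start at 0 and differ between panels. Fads2 in rods is between 42.7 and 75.7 CPM in KO and between 8.05 and 9.82 CPM in WT, while in amacrine cells the genotypes lie together between 39.4 and 45.7 CPM.

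In amacrine cells Fads2 was at 39.8, 44.5 and 40.6 CPM in WT and 39.4, 44.4 and 45.7 CPM in KO (0.05 ± 0.106, adjusted p = 0.91), and Fads1 was at -0.23 ± 0.159 (adjusted p = 0.80). None of the 8 members tested there or of the 8 tested in bipolar cells passed by limma, against 0.00665% of 15039 and 0.0515% of 13591 genes. At an unadjusted p below 0.05 the count was 0 in amacrine cells, against 4.84% of genes, and 1 in bipolar cells, against 4.87%, namely Fads2 (7.61, 6.97 and 5.21 CPM in WT and 13.0, 9.60 and 9.84 CPM in KO, 0.67 ± 0.25, adjusted p = 0.80), and edgeR's count test called no member in either class. Mfsd2a in endothelial cells was at 251, 371 and 255 CPM in WT and 432, 356 and 130 CPM in KO, with 5 UMIs in each P30 library, and too few cells for a test. Adipor1 was lower in KO in rods (-2.49 ± 0.143), bipolar cells (-1.93 ± 0.187), Müller glia (-1.80 ± 0.218) and cones (-1.75 ± 0.135), and in amacrine cells was at -1.66 ± 0.155 (adjusted p = 0.10).

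Other genes of the pathway were read from a list of 43 genes for the elongation cycle, other desaturases, other acyl-CoA synthetases, lysophospholipid acyltransferases, peroxisomal shortening and fatty acid carriers. In retina 13 of 42 tested were higher and 8 lower in KO, where 16.2% of all genes were higher and 14.7% lower, with a median of 0.08 on the log2 scale against 0.00 over all genes. Agpat2, an acyltransferase of phosphatidic acid synthesis, was the 1 DEG that rose (1.12 ± 0.143 to 2.21 ± 0.239 CPM, log2 fold change 0.98 ± 0.157), and Fabp7, a fatty acid binding protein of glia, was the 1 that fell (0.980 ± 0.304 to 0.478 ± 0.189 CPM, -1.02 ± 0.316). By group, beside the same shares over all genes, 2 of 2 other desaturases and 3 of 4 other acyl-CoA synthetases were higher, and acyltransferases were divided, 4 of 12 higher and 3 lower.

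In RPE 4 of 41 tested passed the test, all lower, where 6.73% of all genes passed and 3.89% were lower. The count is close to the first share, and its excess over the second was not tested. The median was -0.02, as over all genes, and none of the 4 was a DEG. The 4, named after their values were seen, were Elovl6 (-0.43), an elongase of saturated chains, Acsl3 (-0.39), a long-chain acyl-CoA synthetase, Mboat7 (-0.36), which places arachidonic acid in phosphatidylinositol, and Scp2 (-0.44), a peroxisomal carrier and thiolase. In rods 5 of 33 tested passed by limma, all higher, where 6.22% of all genes passed and 4.13% were higher, with a median of 0.17 against 0.01 over all genes. They were Acsl4 (1.83 ± 0.255), which prefers arachidonic acid, Elovl6 (1.16 ± 0.25), Acsl3 (0.79 ± 0.132), Tecr (0.70 ± 0.131), the last enzyme of the elongation cycle, and Lpcat2 (0.51 ± 0.137), also named after their values were seen.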

How the data were processed

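Bulk RNA-seq of retina and RPE and 10x single-cell RNA-seq of retina were used. The deposited bulk tables hold raw counts per Ensembl gene made by the authors, and 53620 of 53801 identifiers were matched to symbols. The submitters' processing notes name mm10, HOMER, edgeR 3.20.9, Cell Ranger 2.1 and Seurat 3.2.2, and no source used here gives the strand setting of the counting. The deposited single-cell matrix holds natural log values to which the authors' scaling (log of 1 plus 10000 times the share of the cell) had been applied more than once. After 1 inverse step 66.67% of the values were whole numbers (within 0.01), and after 2 steps 99.99998% were, so UMI counts were recovered.

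Bulk counts were tested with edgeR 4.0.16 (R 4.3.3), quasi-likelihood, TMM, filterByExpr and Benjamini-Hochberg adjustment over all genes. A gene passed at an adjusted p below 0.05, and a DEG also needed a fold change of 1.5. Non-overlap was counted on CPM. RPKM used GENCODE M21 exon lengths. Cells were clustered with scanpy 1.11.5 and leidenalg 0.10.2 (2000 variable genes, 30 components, 15 neighbours, resolution 1.0) and named from marker lists. The score limit of 0.4 for a name, its fold reference and the pooled bipolar class were set after the data were seen. Doublets were left in. UMIs were summed per class and library and log2 CPM (prior count 2, at least 20 summed counts) was tested with limma 3.58.1 with age in the model, which leaves 2 residual degrees of freedom. Classes with 50 cells in each library were tested. Libraries held 2558 to 5633 cells with medians of 1349 to 4357 UMIs, and library pairs shared 0 to 15 barcodes. DESeq2 1.42.0 and limma-voom were alternatives. The scripts were tested on simulated data. The members, pathway list and markers were chosen with earlier results of these data known. All members were named, together with pathway DEGs, the 5 genes most alike to Elovl2 and to Elovl4, and Adipor1.

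Same-numbered WT and KO RPE libraries deviated together (r between 0.276 and 0.59, 4 of 4 pairs over 0.1), although no label says what a number marks. The main fits did not use the numbers as pairs, and a fit with the number as a block was an alternative. Different-numbered pairs correlated up to 0.552, and 1 of the 4 WT libraries correlated best with its own number. Libraries 2 and 3 of both genotypes held the most rod RNA.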

Additional observations from a re-analysis of the deposited data

Results flagged for a closer look

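The genotype effect differed between RPE and retina for Mfsd2a (-2.12 on the log2 scale, RPE minus retina), Fads2 (-1.63), Fads1 (-1.28) and Acsl6 (-0.52), by the interaction test over all 16 bulk libraries. The first 3 moved in opposite directions in the tissues, with all KO libraries on 1 side of all WT libraries in each.

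Within groups of 4 bulk libraries, Fads2 in WT RPE library 3 (207 CPM) lay below the other 3, with a gap of 0.97 of the group's range. Mfsd2a in KO RPE library 4 (22.1 CPM) lay above the other 3, with a gap of 0.92 of the range. Both gaps passed Dixon's 95% critical value for 4 values, which 36 groups were set against and which chance alone passes in about 1 group in 20. In both cases the library was still on its own genotype's side of the difference.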

How the results depend on the processing

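Of the member values that passed a test in bulk, 432 kept their direction and their side of the threshold under the alternatives, 23 no longer passed and 3 changed sign. For the values that passed in the cell classes, 20 were kept and 4 no longer passed. With the rod marker level as a covariate, 0 members passed in retina, and Elovl2 (0.11), Acsl6 (0.04) and Mfsd2a (-0.73) changed sign; the covariate separates the genotypes. With the RPE libraries numbered 1 and 4 alone 2 members passed in RPE, where 208 of 18893 genes did, and Elovl4 turned to 0.07, with fewer samples by construction. By edgeR's count test 2 members passed in Müller glia and 2 in cones, where limma passed 0, and the cause was not tested. Over all genes edgeR called 956 against 125 by limma in Müller glia, and 110 against 4 in cones. Without age in the model (no replicate block) 0 members passed in rods, and 5 of 11677 genes passed. The estimates for Fads2 (2.45) and Fads1 (1.29) could not move in that fit, as each age held 1 library per genotype.

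Leaving out 1 library or age at a time gave 7 to 8 members in retina, 4 to 5 in RPE, 4 to 5 for the interaction, 8 to 9 between the WT tissues, 1 to 2 in rods, 0 to 2 in cones, 0 to 1 in Müller glia and 0 to 0 in amacrine and bipolar cells. The low value in rods came without P19 or P25, and the high value in cones without P30.

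With the replicate number as a block, 7 members passed in retina, where Acsl6 was lost, 5 in RPE, 4 for the interaction and 9 between the WT tissues; no other call changed. With retina and RPE of a number paired within a genotype, chosen after the data were seen, 4 and 9 passed. Same-numbered retina libraries of the genotypes correlated between 0.043 and 0.189 (2 of 4 pairs over 0.1), and WT retina with WT RPE between 0.056 and 0.155, so these numbers were not taken as pairs.

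Acsl6 in retina also failed with no filter and, as did Elovl4, in the joint fit. DESeq2 called 2701 genes in RPE against 1278, and the joint fit 2731 in retina against 5990 and 2863 in RPE. Without 1 library, 645 to 2130 genes were called in RPE. Over the other alternatives of each fit, the sign turned only in values that had not passed. In RPE these were Elovl1 (0.00, 0.01, 0.02 and 0.03, and -0.13 to 0.14 without 1 library) and Elovl5 (-0.11 to 0.02 without 1 library), and for the interaction Elovl4 (-0.04 to 0.46) and Elovl2 (-0.16 to 0.01), also without 1 library. In the classes the ranges without 1 age, with any other value that changed sign, were as follows. Rods had Elovl1 from -0.21 to 0.14 (0.00 without the deep cluster) and Elovl4 from -0.11 to 0.06, and cones had Elovl4 from -0.09 to 0.00. Müller glia had Agpat3 from -0.21 to 0.04 (0.07 and 0.09) and Elovl1 at 0.06 with TMM and with edgeR. Amacrine cells had Elovl1 from -0.32 to 0.25 (0.05 and 0.12), Elovl2 from -0.10 to 0.26 (-0.08), Elovl4 from -0.06 to 0.06 (0.02 and 0.03), Elovl5 from -0.05 to 0.10 (-0.05), Fads2 from -0.01 to 0.08, Acsl6 from -0.04 to 0.22 and Agpat3 from -0.07 to 0.02 (0.01). Bipolar cells had Elovl1 from -0.11 to 0.76, Elovl2 from -0.68 to 0.01, Elovl4 from -0.07 to 0.23, Acsl6 from -0.15 to 0.12 (-0.05) and Agpat3 from 0.00 to 0.12.

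Depth limits the single-cell values of Elovl5 and Mfsd2a in rods, with 12 and 10 UMIs over the 6 libraries, and every P30 value in cones and Müller glia. With class fits resting on 2 residual degrees of freedom, a member that did not pass in a class is not shown to be equal between the genotypes.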

Other observations

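Astrocytes, the class with the highest desaturase levels in WT, were too few for a test (between 1 and 24 cells per library). Fads2 there was at 100, 195 and 198 CPM in WT and 192, 200 and 383 CPM in KO at P19, P25 and P30, where the P30 values rested on 1 and 4 UMIs. Fads1 was at 130 and 271 CPM in WT and 160 and 99.9 CPM in KO at P19 and P25. The astrocyte markers summed to between 40.5 and 52 CPM in WT and between 220 and 282 CPM in KO bulk retina. Gfap (19.7 ± 4.22 to 209 ± 25.2 CPM) and Aldh1l1 (14.5 ± 1.75 to 32.3 ± 2.51 CPM) were higher, while S100b (9.92 ± 2.12 to 10.7 ± 0.995 CPM) and Pax2 did not pass. In Müller glia the same markers summed to 82.2, 94.9 and 35.5 CPM in WT and 233, 275 and 420 CPM in KO at P19, P25 and P30.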
